A study of Rattus norvegicus with 4 samples.

Results

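The vesicle release machinery is the set of proteins that docks, primes and fuses secretory vesicles with the plasma membrane. It was followed here in the carotid body of neonatal and adult rats through 68 genes of the 32883 in the deposited table. The members were chosen by gene symbol, as every numbered synaptotagmin (Syt), syntaxin (Stx), VAMP, synapsin (Syn), SV2, complexin (Cplx), RIM (Rims), Munc13 (Unc13), Rab3, syntaxin-binding protein (Stxbp) and SNAP25 relative in the table. Snap23 and Sv2b were not analysed here.

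The study sequenced poly A-selected RNA from whole carotid bodies of Sprague Dawley rats to ask which genes change as the organ matures after birth. The neonate group was 5 days old and the adult group 21 days old, with 2 libraries each. No treatment or transgene was used, and per the labels each library pooled 6 pups or 3 adult animals, so 1 library is an average over animals. P-values therefore measure the spread between pools and not between animals.

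The carotid body senses arterial oxygen through glomus cells, which release catecholamines and other transmitters from vesicles onto sensory nerve endings. Release runs through SNARE proteins. A VAMP on the vesicle pairs with a syntaxin and a SNAP25-type protein on the target membrane, synaptotagmins sense calcium, complexins hold and assist the assembled SNAREs, Stxbp and Munc13 proteins prepare them, and Rab3 with RIM brings the vesicle to its site. Close relatives of the same families also run traffic between the Golgi, endosomes and lysosomes in every cell.

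The libraries held 36286191 to 39476110 estimated counts, so that 3 counts, the limit set by a count of 0, correspond to 0.0760 to 0.0827 CPM (counts per 1000000 counts of the library). Intervals of this kind cover counting error only. The share of mitochondrially encoded genes was 18.7% and 15.6% in neonatal libraries against 9.06% and 9.08% in adult ones. All 14 glomus cell markers were detected, with summed levels of 7072 and 5667 CPM in neonates and 6424 and 5311 CPM in adults, and these overlapped between ages. Parathyroid markers summed to 1792 and 211 CPM in the neonatal libraries, and their defining genes Pth and Gcm2 had 0 counts in both adult libraries. Erythroid markers (4 of 4 tested higher in neonates, against 31.2% of all genes tested) summed to 8861 and 5151 CPM in neonates and 2141 and 1922 CPM in adults. The part of other cell types in the values given here was not tested, and in whole tissue fewer cells of a type and less RNA per cell cannot be told apart.

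A gene was tested if it reached 1 CPM in at least 2 libraries, which 60 of the 68 members did among 13838 genes. Of the 60, Syt14 and Rims3 reached 1 CPM in the adult libraries alone, and none did so in the neonatal libraries alone. The other 8 were Syt2, Syt8, Syt10, Syt16, Cplx3, Cplx4, Rims1 and Unc13c, with at most 44 counts in any library. Levels are CPM scaled by the TMM factors of edgeR, log2 fold changes are neonate over adult, and adjusted p-values are those of the quasi-likelihood test in edgeR, corrected over the 13838 genes by the Benjamini-Hochberg procedure. Values after ± are standard errors.

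At an adjusted p under 0.05 and a difference of at least 2-fold, 13 members were lower in neonates (21.7% of those tested) and 1 was higher (1.67%). Over all genes tested the shares were 13.2% lower and 7.68% higher. Counted without genes that reached the filter through 1 age alone, a recount added after seeing the data, 11 of 58 members were lower (19%, against 10.9% of all genes so counted) and 1 was higher (1.72%, against 6.93%). The 13 included the synaptotagmins Syt6, Syt7, Syt9, Syt12 and Syt14, the complexin Cplx2 and the VAMPs Vamp1 and Vamp7. The others were the short RIM proteins Rims3 and Rims4, the syntaxin-binding proteins Stxbp4 and Stxbp6, and the vesicle glycoprotein Sv2c. The 1 higher member was Syt5. With neonate library 1 or adult library 2 left out, Syt15 also reached 2-fold higher, at a log2 fold change of up to 1.02. The same held for Syt13 (1.03) and Vamp5 (1.11) without neonate library 2, and for Syn1 (1.15) without adult library 1. In each of these fits fewer of all genes were called higher at 2-fold than with every library.

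Without a minimum fold, 26 members were lower in neonates (43.3%, against 31.1% of all genes tested) and 17 were higher (28.3%, against 31.2%). Together these were 71.7% of the members tested, against 62.3% of all genes, and the other 17 did not pass. Leaving out adult library 2 lowered the number of higher members, and the share of all genes that were higher fell as well. With library size in place of TMM the higher members numbered 6 and the lower ones 36 of 60, where 18.7% of all genes were higher and 43.3% lower, and the median of all genes moved from -0.0029 to -0.25. The median log2 fold change of the members tested was -0.14. The 4 libraries separated by age without overlap for 51 of 60 members (85%, against 83% of all genes tested), a share near that of the whole table.

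Several calls did not pass once 1 library was left out, many with a fold change close to that of the 4 libraries. Without neonate library 1 the log2 fold changes that no longer passed were those of Stx6 (-0.25), Stx11 (-0.58), Rab3b (0.26) and Vamp8 (0.50). Without neonate library 2 they were those of Unc13d (0.28), Vamp3 (0.25) and Sv2a. Without adult library 1 they were those of Vamp4 (-0.31), Unc13d (0.42), Rab3b (0.29), Vamp8 (0.55), Syt1 and Sv2a. Without adult library 2 they were those of Snap29 (-0.24), Stx17 (-0.89), Stx11 (-0.53), Unc13d (0.42), Rab3b (0.22), Vamp8 (0.52), Syt3 (0.31), Vamp3 (0.21), Cplx1, Syn1 and Stxbp6. With library size in place of TMM, Cplx1, Syn1, Syt3, Stx2, Stx8, Vamp3, Vamp8, Stxbp5, Rab3b, Unc13b and Unc13d no longer passed, at 0.02 to 0.47, while Snap25, Vamp2, Stxbp2, Rims2, Unc13a, Syn2, Stx7, Stx12, Stx16 and Stx18 passed as lower, at -0.52 to -0.25. Of the 14 members called at 2-fold, 13 kept that call in every alternative setting in which they were tested, the exception being Stxbp6. Rims3 and Syt14 are among the 13 but were tested in 10 alternatives only. They dropped out of the test when either adult library was left out, so those fits could not show a loss of their call.

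**Figure D1:**
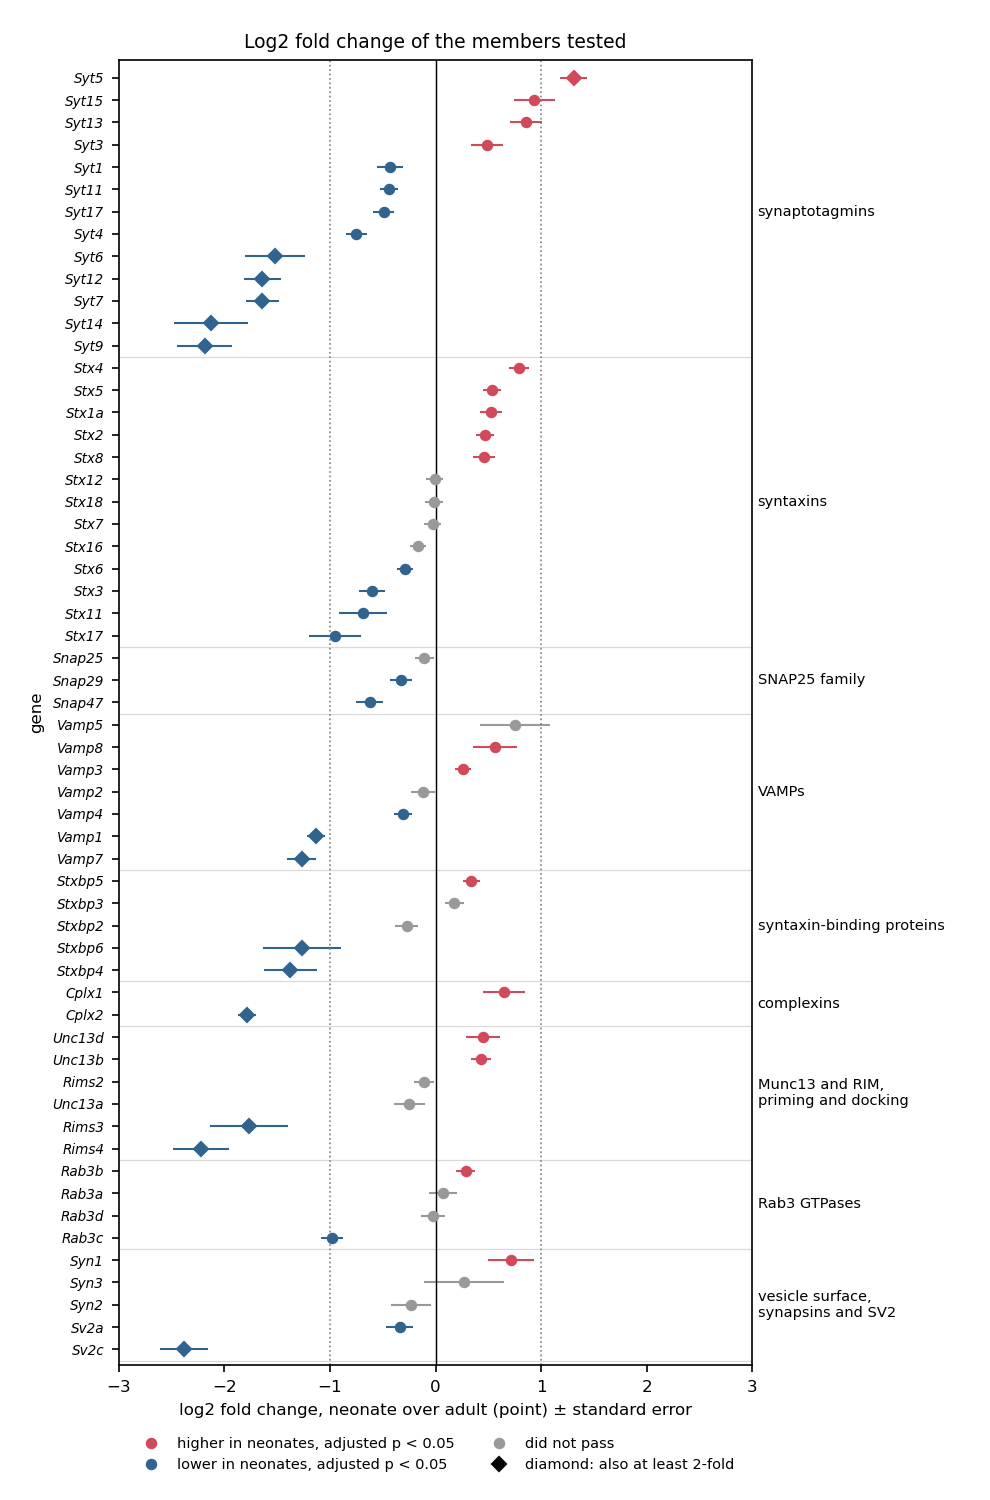
Log2 fold change, neonate over adult, of 58 of the members tested, with one row per gene, grouped by role, bars for the standard error and diamonds for members called at 2-fold or more. The synaptotagmins span the range from Syt9 at -2.19 to Syt5 at 1.31, while the syntaxins stay between -0.95 and 0.79.

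Synaptotagmins are vesicle and plasma membrane proteins of which several bind calcium and trigger fusion. All 13 that were tested passed the test without a minimum fold, 9 lower (69.2%, against 31.1% of all genes) and 4 higher in neonates (30.8%, against 31.2%), and their log2 fold changes had a median of -0.49. The group was not uniform, with 5 members lower (38.5%, against 13.2% of all genes) and 1 higher (7.69%, against 7.68%) at 2-fold or more. Counted without genes that reached the filter through 1 age alone, which leaves out Syt14, 4 of 12 were lower (33.3%, against 10.9%).

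Syt9, a calcium-binding relative of Syt1 found on secretory granules, had 2.08 and 1.55 CPM in neonates and 8.52 and 8.04 CPM in adults. Neither neonatal library came near the adult ones, and the fitted level was 4.55-fold higher in adults, with a log2 fold change of -2.19 ± 0.26 (edgeR adjusted p = 0.00012). Syt7, a high-affinity sensor tied to slow and sustained release, had 6.32 and 7.75 CPM in neonates and 20.8 and 23.0 CPM in adults. Again all adult values lay above all neonatal ones, at a log2 fold change of -1.64 ± 0.15 (edgeR adjusted p = 3.6e-05).

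Syt6, of the high-affinity group, had 2.08 and 1.61 CPM in neonates and 5.24 and 5.35 CPM in adults. The ages did not overlap, with a log2 fold change of -1.52 ± 0.28 (edgeR adjusted p = 0.0014). Syt12 and Syt14 belong to the synaptotagmins without the usual calcium-binding residues. Syt12 (ENSRNOG00000019306) had 6.71 and 6.41 CPM in neonates and 23.4 and 17.6 CPM in adults, and a log2 fold change of -1.64 ± 0.17 (edgeR adjusted p = 6.6e-05) separated the ages. Syt14 was close to the detection filter in neonates, at 0.702 and 0.833 CPM in neonates and 3.08 and 3.64 CPM in adults. Its neonatal values were under the filter in both libraries, so that it could enter the test only by being higher in adults, and its log2 fold change of -2.13 is given without a p. With no filter on level it was -2.15 (edgeR adjusted p = 0.00071).

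The more modest decreases in neonates included Syt1, the principal sensor of fast release in neurons, and Syt4, an atypical form of dense-core vesicles. Syt4 (ENSRNOG00000017333) had 312 and 325 CPM in neonates and 581 and 491 CPM in adults. The adult libraries were both higher, and the fitted level was 1.68-fold higher in adults, with a log2 fold change of -0.75 ± 0.10 (edgeR adjusted p = 0.00023). Syt1 (ENSRNOG00000006426) had 600.1 and 589 CPM in neonates and 904 and 701 CPM in adults. The adult libraries differed more from each other than the neonatal ones did, the estimate was a log2 fold change of -0.43 ± 0.12 (edgeR adjusted p = 0.013), and without adult library 1 it moved to -0.27 (edgeR adjusted p = 0.065). Syt11, an atypical relative of Syt4, and Syt17 were also lower, at log2 fold changes of -0.45 and -0.49.

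In the other direction, Syt5, a calcium-binding synaptotagmin of the same group as Syt1, had 67.0 and 54.3 CPM in neonates and 26.1 and 22.9 CPM in adults. Both neonatal libraries lay well above both adult ones, and the fitted level was 2.47-fold higher in neonates, with a log2 fold change of 1.31 ± 0.12 (edgeR adjusted p = 3.7e-05). In the 13 alternative settings this log2 fold change ranged from 1.06 to 1.47. Syt13 and Syt15, atypical members, rose by log2 fold changes of 0.86 and 0.94, and Syt3, of the high-affinity group, by 0.49. Neurons also carry synaptotagmins, among them Syt1, which was lower in neonates. Of 13 tested markers of sympathetic and sensory neurons, 11 were higher in neonates (84.6%, against 31.2% of all genes) and the other 2 did not pass. Their summed levels were 3270.1 and 2845 CPM in neonates and 1965 and 1597 CPM in adults. The part of neurons in the values of the synaptotagmins, higher or lower, was not tested. Among the 4 synaptotagmins that were not tested, Syt10 had at most 4 counts in any library.

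**Figure D2:**
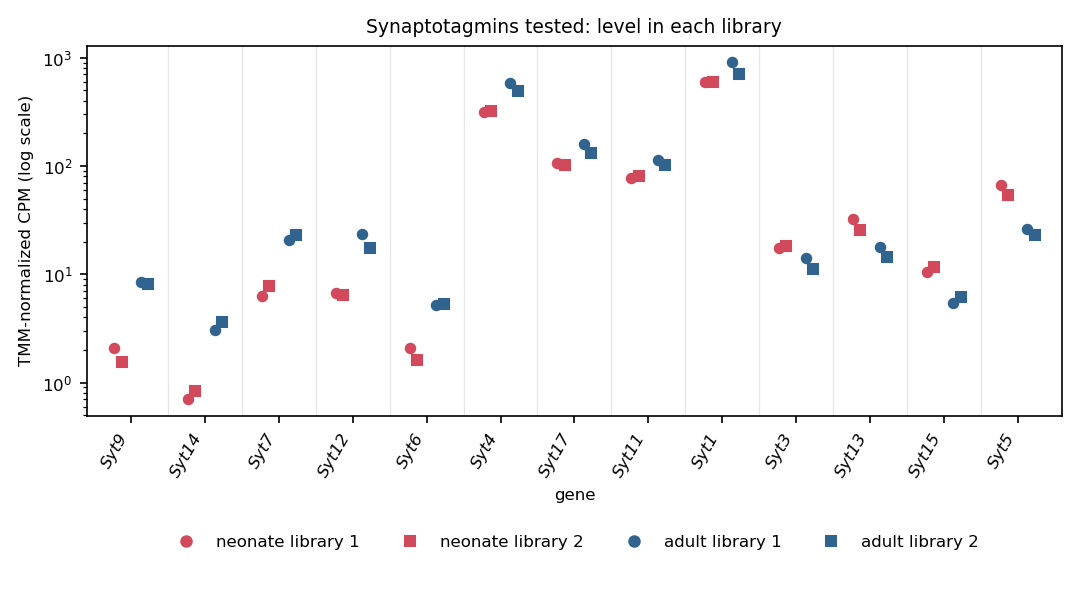
Level of each of the 13 tested synaptotagmins in each library, in TMM-normalized CPM on a log scale, with neonates and adults in separate colours and a circle or square for each library. Genes are ordered by log2 fold change, with Syt9 at the left (neonates below 3 CPM) and Syt5 at the right (neonates above 50 CPM). For each the neonatal and adult points do not overlap, as was so for 83% of all genes tested.

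Complexins bind the assembled SNARE complex, where they restrain fusion at rest and assist it when calcium enters. The 2 complexins tested moved in opposite directions. Cplx2 (ENSRNOG00000000105) had 47.5 and 53.0 CPM in neonates and 176 and 169.9 CPM in adults. The adult libraries agreed closely and lay far above the neonatal ones, and the fitted level was 3.45-fold higher in adults, with a log2 fold change of -1.78 ± 0.08 (edgeR adjusted p = 1.8e-06). Cplx1 (ENSRNOG00000000060) had 12.2 and 13.3 CPM in neonates and 9.47 and 6.76 CPM in adults. Here the neonatal libraries were higher, at a log2 fold change of 0.65 ± 0.20 (edgeR adjusted p = 0.02), but without adult library 2 the estimate was 0.40 (edgeR adjusted p = 0.18). The ratio of Cplx2 to Cplx1 counts, which no scaling of libraries can change, was 3.91 and 3.99 in neonates and 18.6 and 25.1 in adults, 5.48-fold higher in adults. Cplx3 and Cplx4, known from the retina, had at most 6 and 3 counts and were not tested.

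The promoters of the complexin pair are shown because these paralogs changed in opposite directions. RefSeq windows (rat build GRCr8, 250 bases before to 50 bases after the start) were matched for 54 of the 68 members. Capitals mark GC boxes (GGGCGG) and CCAAT boxes (CCAAT) on either strand, and each window is written 5′ to 3′ on the strand of the gene.
Cplx1, chr14:1328823-1329122, plus strand: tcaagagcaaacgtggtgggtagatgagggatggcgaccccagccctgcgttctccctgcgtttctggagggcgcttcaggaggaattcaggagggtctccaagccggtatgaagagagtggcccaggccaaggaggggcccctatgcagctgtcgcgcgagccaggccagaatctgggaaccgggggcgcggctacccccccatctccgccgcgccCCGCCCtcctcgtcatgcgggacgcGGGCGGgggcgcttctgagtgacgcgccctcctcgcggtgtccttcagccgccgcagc
Cplx2, chr17:10236704-10237003, minus strand: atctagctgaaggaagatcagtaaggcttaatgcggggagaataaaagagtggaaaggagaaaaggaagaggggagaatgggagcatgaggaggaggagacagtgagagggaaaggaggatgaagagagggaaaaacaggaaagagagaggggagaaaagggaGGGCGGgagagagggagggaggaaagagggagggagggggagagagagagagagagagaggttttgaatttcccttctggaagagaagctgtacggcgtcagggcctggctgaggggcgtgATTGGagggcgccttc
The Cplx1 window was 68.7% GC with 28 CpG dinucleotides, and the Cplx2 window was 54.0% GC with 6. GC boxes lay 33 and 8 bases before the Cplx1 start and 87 bases before the Cplx2 start, and a CCAAT box lay 34 bases after the Cplx2 start. Such a match describes the sequence and does not show that a factor binds.

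VAMPs, or synaptobrevins, are the SNAREs of the vesicle. Vamp1 and Vamp2 serve synaptic and dense-core vesicles in neurons and neuroendocrine cells, Vamp3 recycling endosomes, Vamp4 the trans-Golgi network, Vamp7 late endosomes and lysosomes, and Vamp8 endosomes and secretory granules of many non-neuronal cells. Of 7 tested, 3 were lower in neonates (42.9%, against 31.1% of all genes) and 2 higher (28.6%, against 31.2%). Vamp1 (ENSRNOG00000019219) had 59.6 and 61.6 CPM in neonates and 140.3 and 125 CPM in adults. Both adult libraries were above both neonatal ones, at a log2 fold change of -1.13 ± 0.09 (edgeR adjusted p = 1.3e-05). Vamp2 (ENSRNOG00000006989) had 312 and 303 CPM in neonates and 375 and 294 CPM in adults. One adult library was the highest of the 4 and the other the lowest, so the ages overlapped, and a log2 fold change of -0.12 ± 0.11 (edgeR adjusted p = 0.38) did not pass. Without adult library 2 it was -0.31 (edgeR adjusted p = 0.024), and with library size in place of TMM it was -0.37 (edgeR adjusted p = 0.022). The ratio of Vamp1 to Vamp2 counts was 0.191 and 0.203 in neonates and 0.374 and 0.426 in adults, 2.02-fold higher in adults.

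Vamp7 (ENSRNOG00000008372) had 8.23 and 7.83 CPM in neonates and 19.1 and 19.5 CPM in adults. It was the 1 member of the general trafficking genes that was lower at 2-fold or more, with a log2 fold change of -1.27 ± 0.14 (edgeR adjusted p = 7.6e-05). Vamp3 (ENSRNOG00000030055) had 197 and 205 CPM in neonates and 171 and 164 CPM in adults. It was higher in neonates by a small amount, at a log2 fold change of 0.26 ± 0.08 (edgeR adjusted p = 0.014). Vamp8 (ENSRNOG00000012748) had 8.57 and 7.77 CPM in neonates and 5.58 and 5.48 CPM in adults, which separated the ages at a log2 fold change of 0.56 ± 0.21 (edgeR adjusted p = 0.039). Mast cells, which carry Vamp8, were represented by 6 tested markers. Of these, 4 were higher in neonates (66.7%, against 31.2% of all genes) and the other 2 did not pass. They summed to 78.2 and 81.8 CPM in neonates and 28.3 and 24.6 CPM in adults, and their part in the Vamp8 level was not tested. Vamp4 was lower by a log2 fold change of -0.31, and Vamp5, known from muscle, did not pass at 0.75, although without neonate library 2 it did (1.11, edgeR adjusted p = 0.006).

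The VAMP pair is shown because 1 member of the pair was called and the other was not. Capitals mark GC boxes, CCAAT boxes and the cyclic AMP response element (CRE, TGACGTCA) on either strand.
Vamp1, chr4:159698644-159698943, plus strand: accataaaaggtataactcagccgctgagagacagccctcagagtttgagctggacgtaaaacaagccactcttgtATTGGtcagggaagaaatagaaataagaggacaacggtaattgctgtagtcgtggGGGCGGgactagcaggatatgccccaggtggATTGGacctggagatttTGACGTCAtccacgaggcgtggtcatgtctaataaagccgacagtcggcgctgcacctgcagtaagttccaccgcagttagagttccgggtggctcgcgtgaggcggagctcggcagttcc
Vamp2, chr10:54292539-54292838, plus strand: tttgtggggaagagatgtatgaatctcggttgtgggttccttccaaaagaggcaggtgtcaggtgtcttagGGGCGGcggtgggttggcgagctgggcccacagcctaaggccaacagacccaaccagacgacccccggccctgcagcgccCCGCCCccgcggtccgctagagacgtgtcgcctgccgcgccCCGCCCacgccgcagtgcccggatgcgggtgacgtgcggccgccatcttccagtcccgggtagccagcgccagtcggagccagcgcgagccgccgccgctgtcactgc
The Vamp1 window held a CRE 71 bases before the start, CCAAT boxes 174 and 88 bases before it and a GC box 119 bases before it. The Vamp2 window held GC boxes 179, 99 and 58 bases before the start. GC content was 53.3% with 17 CpG dinucleotides for Vamp1 and 69.3% with 31 for Vamp2. Counted by gene, with a match in any of its windows, the CRE occurred in 2 of the 54 matched members (3.7%, Vamp1 and Syn1), against 2% of 27457 genes in the table. GC boxes occurred in 40 of 54 (74.1%, against 36%), CCAAT boxes in 18 of 54 (33.3%, against 39.6%) and TATAAA in 3 of 54 (5.56%, against 15.3%). The median GC content was 62.7% over the members' windows and 51.7% over all windows, and neither share was adjusted for it.

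Syntaxins are the target membrane SNAREs. Of the 14 tested, 5 were higher in neonates (35.7%, against 31.2% of all genes), 4 were lower (28.6%, against 31.1%) and 5 did not pass. These shares were near those of all genes. The log2 fold changes ran from -0.95 to 0.79. Stx1a, the neuronal plasma membrane syntaxin, had 37.5 and 36.0 CPM in neonates and 27.4 and 23.6 CPM in adults. Both neonatal values exceeded both adult values, with a log2 fold change of 0.53 ± 0.11 (edgeR adjusted p = 0.0022).

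Stx4 serves the plasma membrane of most cells, and Stx3 polarized and sensory cells. Stx4 (ENSRNOG00000019302) had 98.6 and 94.4 CPM in neonates and 52.2 and 59.5 CPM in adults, higher in both neonatal libraries at a log2 fold change of 0.79 ± 0.09 (edgeR adjusted p = 0.00011). Stx3 (ENSRNOG00000021013) had 15.8 and 15.4 CPM in neonates and 25.6 and 21.7 CPM in adults, lower in both neonatal libraries at a log2 fold change of -0.60 ± 0.12 (edgeR adjusted p = 0.0026). The ratio of Stx3 to Stx4 counts was 0.160 and 0.163 in neonates and 0.490 and 0.364 in adults, 2.61-fold higher in adults.

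Most of the remaining syntaxins work inside the cell. Stx5 (traffic from the endoplasmic reticulum to the Golgi), Stx2 (plasma membrane) and Stx8 (endosomes) were higher in neonates by log2 fold changes of 0.54, 0.47 and 0.46. Stx17 (autophagosomes), Stx11 (granule release in immune cells) and Stx6 (trans-Golgi network) were lower, at -0.95, -0.69 and -0.29. Of 7 markers of macrophages, 6 were lower in neonates (85.7%, against 31.1% of all genes) and the other did not pass. They summed to 91.5 and 103 CPM in neonates and 171 and 165 CPM in adults. The part of macrophages in the values of these syntaxins was not tested. Stx7, Stx12, Stx16 and Stx18 did not pass, at -0.16 to -0.01.

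Snap25, the neuronal partner of syntaxin, had 590.2 and 615 CPM in neonates and 676 and 620.4 CPM in adults. The ages were adjacent but did not overlap, and a log2 fold change of -0.11 ± 0.09 (edgeR adjusted p = 0.33) did not pass. With library size in place of TMM it was -0.35 (edgeR adjusted p = 0.012). Snap29 and Snap47, widely expressed relatives that act in membrane traffic inside the cell, were lower in neonates at log2 fold changes of -0.33 and -0.62.

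Syntaxin-binding proteins either help SNAREs assemble (Stxbp2 and Stxbp3, of the Munc18 proteins) or hold them back (Stxbp5, or tomosyn, and Stxbp6, or amisyn). Stxbp2 and Stxbp3 are widely expressed. Of the 6 members of this group tested, 2 were lower in neonates (33.3%, against 31.1% of all genes). One was higher (16.7%, against 31.2%) and 3 did not pass. Stxbp2 (ENSRNOG00000000994) had 16.4 and 16.8 CPM in neonates and 19.8 and 20.3 CPM in adults, a small gap at a log2 fold change of -0.27 ± 0.11 (edgeR adjusted p = 0.059) that did not pass. Stxbp3 (ENSRNOG00000020392) had 74.4 and 84.1 CPM in neonates and 69.6 and 70.6 CPM in adults, and a log2 fold change of 0.18 ± 0.09 (edgeR adjusted p = 0.11) did not pass either, although without neonate library 1 it did (0.27, edgeR adjusted p = 0.035).

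Among the others, Stxbp4, which binds Stx4, had 2.56 and 2.44 CPM in neonates and 6.07 and 6.91 CPM in adults. Both adult values were higher, with a log2 fold change of -1.38 ± 0.25 (edgeR adjusted p = 0.0013). Stxbp6 (ENSRNOG00000004198) had 1.49 and 1.03 CPM in neonates and 2.50 and 3.57 CPM in adults. The ages did not overlap, at a log2 fold change of -1.27 ± 0.37 (edgeR adjusted p = 0.014), but without adult library 2 the estimate was -1.01 (edgeR adjusted p = 0.11). Stxbp5 was higher in neonates by a log2 fold change of 0.34.

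**Figure D3:**
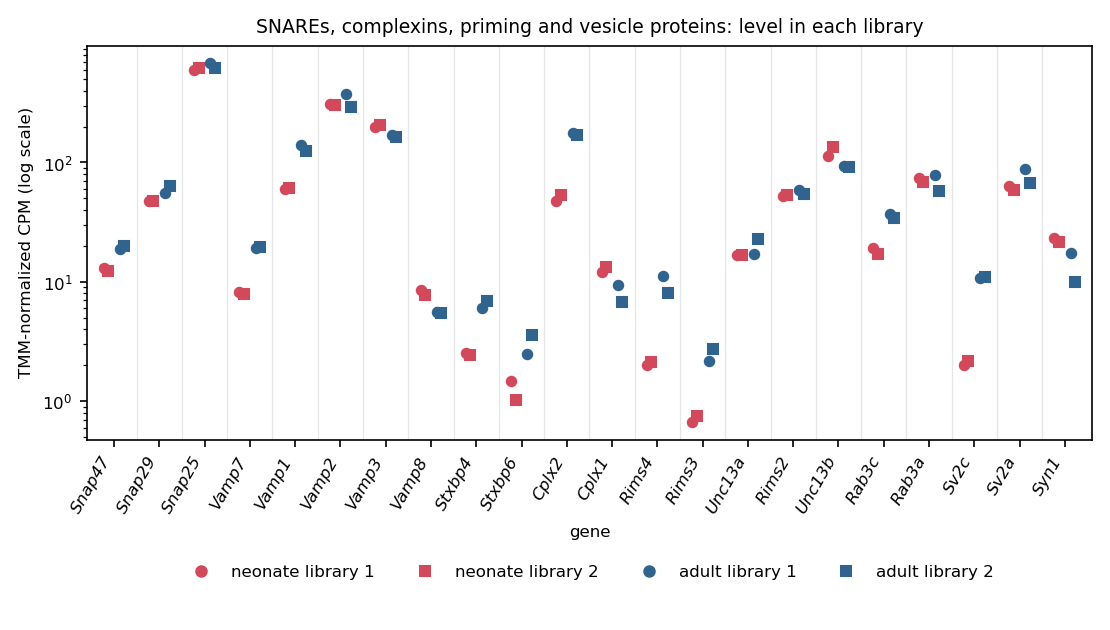
Levels of 22 SNAREs, complexins, priming and vesicle proteins in each library, in TMM-normalized CPM on a log scale, neonates and adults in separate colours. Cplx2, Vamp1, Vamp7, Rims4 and Sv2c show wide gaps between ages, whereas Vamp2 and Rab3a overlap.

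Munc13 proteins open the closed syntaxin and prime vesicles, and RIM proteins gather Rab3, Munc13 and calcium channels at the release site. Unc13a, the main neuronal form, had 16.9 and 16.7 CPM in neonates and 17.2 and 22.8 CPM in adults. One adult library was above the other 3, and a log2 fold change of -0.25 ± 0.15 (edgeR adjusted p = 0.17) did not pass, although without adult library 1 it did (-0.47, edgeR adjusted p = 0.024). Unc13b, found in neurons and other cells, and Unc13d, which primes granules of immune cells, were higher in neonates at 0.43 and 0.45. Unc13c was not tested.

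Rims4, a short RIM protein that lacks the Rab3-binding part, had 1.99 and 2.14 CPM in neonates and 11.3 and 7.99 CPM in adults. Both adult values were several times the neonatal ones, at a log2 fold change of -2.22 ± 0.26 (edgeR adjusted p = 0.00012). Rims3, the other short form, had 0.674 and 0.750 CPM in neonates and 2.15 and 2.71 CPM in adults. The neonatal libraries were both under the filter, so this gene too could pass only by being higher in adults, and its log2 fold change of -1.77 is given without a p. With no filter on level it was -1.79 (edgeR adjusted p = 0.0038). Rims2, a full-length scaffold, had 51.9 and 53.2 CPM in neonates and 59.3 and 54.2 CPM in adults. The estimate, a log2 fold change of -0.11 ± 0.09 (edgeR adjusted p = 0.32), did not pass, and with library size in place of TMM it did (-0.36, edgeR adjusted p = 0.011). Rims1 was not tested, with 27 and 19 counts in neonates and 44 and 31 in adults. The ratio of Rims4 to Rims2 counts was 0.0384 and 0.0402 in neonates and 0.190 and 0.147 in adults, 4.26-fold higher in adults.

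Rab3 GTPases sit on secretory vesicles and link them to RIM proteins. Rab3a, the main neuronal form, had 74.2 and 68.3 CPM in neonates and 77.9 and 57.7 CPM in adults. The adult libraries lay on either side of the neonatal ones, and a log2 fold change of 0.07 ± 0.13 (edgeR adjusted p = 0.66) did not pass. Rab3c (ENSRNOG00000011623) had 19.2 and 17.2 CPM in neonates and 37.4 and 34.6 CPM in adults, and the adult values were clearly above, at a log2 fold change of -0.98 ± 0.10 (edgeR adjusted p = 6.9e-05). Rab3b was higher in neonates at 0.28, and Rab3d did not pass at -0.03.

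Synapsins tether vesicles in reserve, and SV2 proteins are glycoproteins of the vesicle membrane that interact with synaptotagmin. Sv2c, in the brain found mainly in the basal ganglia, had 1.99 and 2.17 CPM in neonates and 10.7 and 11.0 CPM in adults. The libraries of each age were nearly equal, and the fitted level was 5.21-fold higher in adults, with a log2 fold change of -2.38 ± 0.22 (edgeR adjusted p = 3.6e-05). This was the lowest log2 fold change of the 60 members tested. Sv2a, the widespread form, had 63.3 and 58.9 CPM in neonates and 87.9 and 66.9 CPM in adults. The ages did not overlap and it passed at a log2 fold change of -0.34 ± 0.13 (edgeR adjusted p = 0.041), but without neonate library 2 it was -0.27 (edgeR adjusted p = 0.13) and without adult library 1 it was -0.16 (edgeR adjusted p = 0.31).

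Syn1 (ENSRNOG00000010365) had 23.2 and 21.6 CPM in neonates and 17.4 and 9.93 CPM in adults. The adult libraries differed widely, the estimate was a log2 fold change of 0.71 ± 0.22 (edgeR adjusted p = 0.02), and it was 0.34 without adult library 2 (edgeR adjusted p = 0.088) and 1.15 without adult library 1. Syn2 and Syn3 did not pass, at -0.23 and 0.27.

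Count ratios between relatives were compared because they do not depend on how libraries are scaled. Transcript lengths also enter such a ratio, so only its change with age was read, and the pairs were picked after their values were seen. In 8 pairs shown and in Syt4 to Syt1 the ages did not overlap. The ratio of Syt9 to Syt5 was 0.0310 and 0.0286 in neonates and 0.326 and 0.351 in adults, 11.4-fold higher in adults. The ratio of Sv2c to Sv2a was 0.0315 and 0.0367 in neonates and 0.122 and 0.164 in adults, 4.16-fold higher in adults. Syt7 to Syt1 went from 0.0105 and 0.0131 to 0.0230 and 0.0329, and Rab3c to Rab3b from 0.326 and 0.306 to 0.768 and 0.749. Because the pairs were picked this way, no test was made on the ratios.

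**Figure D4:**
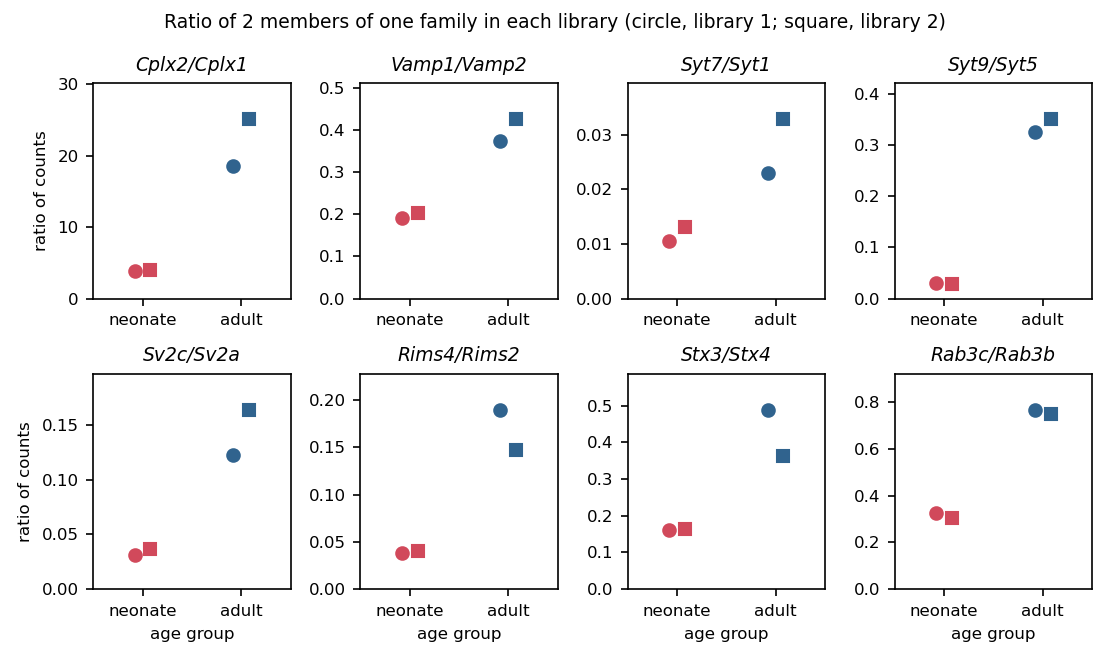
Ratio of the counts of 2 members of one family in each library for 8 pairs, neonates at the left and adults at the right of each panel, each axis starting at 0. In every panel the adult points lie above the neonatal ones, for Cplx2 to Cplx1 at 18.6 and 25.1 against 3.91 and 3.99.

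Members known mainly from neurons and members that serve traffic in all cells were set side by side. The 2 lists do not cover all 60 members tested. Of the 13 members lower at 2-fold, Syt6, Syt7, Syt12, Syt14, Rims3, Rims4, Stxbp4 and Stxbp6 were in neither list. Of 20 neuronal synaptic members tested, 4 were higher in neonates (1 of them, Syt5, at 2-fold), 7 were lower (4 at 2-fold, Syt9, Vamp1, Cplx2 and Sv2c) and 9 did not pass, the median being -0.12 on the log2 scale. The 9 included Snap25, Vamp2, Unc13a, Rims2 and Rab3a. Of 21 general trafficking members, 7 were higher, 7 lower (1 at 2-fold, Vamp7) and 7 did not pass, with a median of -0.01. Of the neuronal list 20% were higher in neonates and 35% lower, and of the trafficking list 33.3% each way. These shares were near the 31.2% higher and 31.1% lower of all genes, except the 20%, which lay below. At 2-fold, 20% of the neuronal list and 4.76% of the trafficking list were lower, against 13.2% of all genes. Higher at 2-fold were 5% of the neuronal list and none of the trafficking list, against 7.68%. Both lists were chosen with earlier results of these data known.

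Summed over their members, the neuronal list was at 2119.5 and 2105 CPM in neonates and 2808 and 2355 CPM in adults. The trafficking list was at 1256 and 1268 CPM in neonates and 1208 and 1210.2 CPM in adults. The neuronal sums were higher in both adult libraries but unequal between them, and Syt1, Cplx2 and Vamp1 made up 403 of the 469 CPM between the group means, while the trafficking sums lay within a narrow range. Beside them the neuron marker sums were higher in both neonatal libraries, and the glomus marker sums overlapped. Of 14 glomus markers, 5 were higher in neonates (35.7%, against 31.2% of all genes), 4 lower (28.6%, against 31.1%) and 5 did not pass. Among them Chga had 1721 and 791 CPM in neonates and 784 and 659 CPM in adults. It was highest in neonate library 1, as was the parathyroid marker sum, and the part of parathyroid tissue in it was not tested. Sustentacular and Schwann cell markers (2 of 10 higher, 3 lower) summed to 1465 and 2839.6 CPM in neonates and 2488 and 2677 CPM in adults, with neonate library 1 the lowest.

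**Figure D5:**
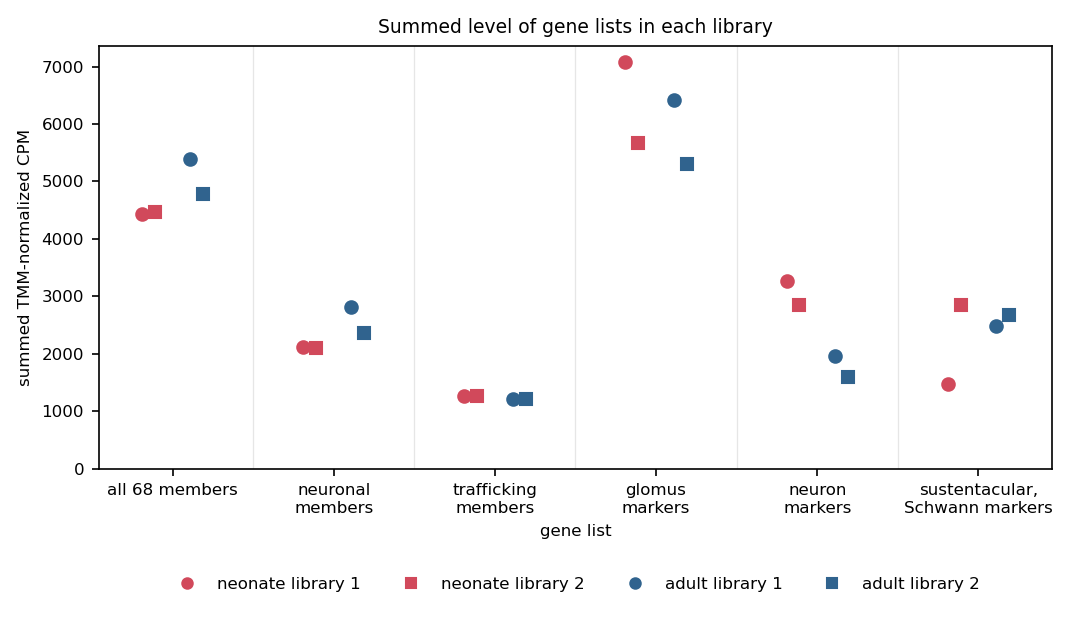
Summed TMM-normalized CPM of gene lists in each library, with the axis starting at 0, neonates and adults in separate colours and 1 point per library. The trafficking members differ little between libraries (1208 to 1268 CPM), the sum over neuronal members is higher in adults, mostly through Syt1, Cplx2 and Vamp1, and the sum over neuron markers is higher in neonates.

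Genes that work with the members were taken from lists assembled around the same pathway. Their background was the same shares over all genes tested, 31.1% lower and 31.2% higher, or 13.2% and 7.68% at 2-fold. Dense-core vesicle docking and priming genes, of which 10 were tested, had 7 lower in neonates (5 at 2-fold) and 3 that did not pass, with a median of -0.80. Stxbp5l and Rph3a entered only through the adult libraries, and without them 5 of 8 were lower (3 at 2-fold), with a median of -0.56. Sytl4 (granuphilin), a Rab27 effector on granules, had 9.16 and 10.1 CPM in neonates and 35.2 and 35.4 CPM in adults. Doc2b, a soluble calcium sensor, had 13.0 and 11.2 CPM in neonates and 37.9 and 32.9 CPM in adults. Both were lower in the 2 neonatal libraries, at log2 fold changes of -1.88 and -1.55. Stxbp5l, a tomosyn relative, and Rph3a (rabphilin), a Rab3 effector, were low in all libraries and lower in neonates at -1.98 and -1.47, and Cadps, which primes dense-core vesicles, was at -1.02.

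Active zone scaffold genes had 6 of 9 lower in neonates (2 at 2-fold) and 1 higher, with a median of -0.55. Without Erc2, which entered only through the adult libraries, 5 of 8 were lower (1 at 2-fold), with a median of -0.45. Pclo (piccolo) had 5.87 and 5.39 CPM in neonates and 15.7 and 13.5 CPM in adults, and the adult libraries were both higher, at a log2 fold change of -1.37 ± 0.18 (edgeR adjusted p = 0.0002). Erc2 had 0.393 and 0.111 CPM in neonates and 1.17 and 1.21 CPM in adults, with a log2 fold change of -2.23. Ppfia4, a liprin, went the other way with 9.52 and 8.69 CPM in neonates and 3.18 and 3.67 CPM in adults, at a log2 fold change of 1.41 ± 0.22 (edgeR adjusted p = 0.00061). Ppfia2, another liprin, was at -0.88.

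Vesicle membrane proteins had 8 of 11 lower in neonates (2 at 2-fold, Syngr1 and Synpr) and 1 higher (Scamp3). Syp (synaptophysin), the common marker of small clear vesicles, had 289 and 293 CPM in neonates and 421 and 329 CPM in adults. The adult libraries were higher but unequal, at a log2 fold change of -0.37 ± 0.11 (edgeR adjusted p = 0.021). Synpr (synaptoporin), its relative, had 26.0 and 19.0 CPM in neonates and 54.8 and 44.5 CPM in adults, at a log2 fold change of -1.14 ± 0.16 (edgeR adjusted p = 0.00027). Syngr1 (synaptogyrin) and Syngr2 were at log2 fold changes of -1.42 and -0.93, and Scamp3 at 0.72.

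SNAREs are taken apart after fusion by the ATPase Nsf with its SNAP adaptors. Nsf had 80.4 and 73.7 CPM in neonates and 91.9 and 76.9 CPM in adults. The ages overlapped, and a log2 fold change of -0.13 ± 0.10 (edgeR adjusted p = 0.29) did not pass. Napb, the neuronal adaptor, had 1.66 and 2.92 CPM in neonates and 5.90 and 5.76 CPM in adults and was lower in neonates at a log2 fold change of -1.35 ± 0.31 (edgeR adjusted p = 0.005). Napa was lower at -0.21, and Napg did not pass at -0.12.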

How the data were processed

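Whole carotid body RNA of 2 neonate (day 5) and 2 adult (day 21) libraries was analysed. Per the labels, reads were quantified with Salmon 1.5.2 against rat build Rnor_6.0, and the study's methods add read trimming, the STAR aligner and a sum over transcripts of each gene. The deposited values were estimated counts per gene, not normalized. Of the members, Stx7 alone had counts that departed from whole numbers by more than 0.01, and reads of close relatives or overlapping genes could be split between them. A strand setting is not given in the sources used here. The study's text gives other pool sizes and another number of replicates than the labels, and the labels were followed.

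Estimated counts were rounded, symbols that the RefSeq table gives to non-coding genes were taken out, and a gene stayed in the test if 2 or more libraries had 1 CPM or more (13838 genes). Library sizes were 36286191 to 39476110, and TMM factors 0.902 and 0.935 in neonates and 1.08 and 1.10 in adults. Neonates were compared with adults by the edgeR 4.0.16 quasi-likelihood test (R 4.3.3) and Benjamini-Hochberg adjustment across the genes kept, with an adjusted p under 0.05 and, where stated, at least 2-fold as call rules. The script was tested on simulated data. DESeq2 1.42.0, limma 3.58.1, other scalings and filters, a replicate block and leaving out each library were run as alternatives. Members were chosen by symbol, and 2 of those tested are counted but not reported singly here. Given in full were members called at 2-fold or more and a list of core release genes with their widely expressed counterparts, and of each companion list up to 4 genes with the largest change plus Syp and Nsf. The members and lists were chosen with earlier results of these data known. Replicate numbers were checked for pairing, and same-numbered libraries deviated with a correlation of 0.062 over 13838 genes. The study's methods state that part of the litter was kept to day 21, so the ages can share litters. No label says which libraries share a litter or day, so same-numbered libraries were not taken as pairs. Promoter windows and motifs came from RefSeq build GRCr8, and coordinates of the counting build were not used here.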

Additional observations from a re-analysis of the deposited data

How the results depend on the processing

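The numbers of members called (1 higher and 13 lower at 2-fold, 17 higher and 26 lower at any fold) were identical with DESeq2, limma-voom, RLE factors, TMM factors computed without mitochondrial and ribosomal protein genes, all genes kept, and a replicate block. A paired reading of the replicate numbers, the replicate block, thus gave 1, 13, 17 and 26 as well, its median was -0.14 on the log2 scale, and it changed no other call. Library size alone gave 6 higher and 36 lower at any fold, with a median of -0.39, and over all genes 2584 in place of 4324 were higher and 5998 in place of 4298 lower at any fold, and 704 in place of 1063 higher and 2548 in place of 1821 lower at 2-fold. The share of higher members among those called at any fold then went from 39.5% to 14.3%. A mean of at least 5 CPM gave 9 lower at 2-fold among 52 tested, and 654 higher and 1169 lower over all genes. Without any 1 library, 2 to 3 members were higher and 11 to 15 lower at 2-fold, 10 to 16 higher and 21 to 25 lower at any fold, and the median was -0.19 to -0.069. In those fits the lone library is assumed to vary like those of the other age.

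Among the 58 members given singly, signs changed only in members that had not passed. With library size alone they were Rab3a (-0.17) and Stxbp3 (-0.067), and with mitochondrial and ribosomal protein genes left out of TMM Stx12 (0.0030). Without any 1 library, values ran from -0.067 to 0.069 for Stx12, -0.10 to 0.018 for Stx7, -0.047 to 0.023 for Stx18, -0.48 to 0.0068 for Syn2, -0.19 to 0.14 for Rab3d, -0.31 to 0.035 for Vamp2 and -0.15 to 0.27 for Rab3a. Of 742 fold changes of these members recomputed in 13 settings, 678 kept direction and side of the threshold, 37 lost the call, 16 gained it and 11 changed sign. The cause was not tested. With 2 pooled libraries an age, spread between animals is not measured, and members near 1 CPM rest on few counts.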

Other observations

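Genes for proteins that retrieve vesicle membrane after release were called in both directions, at any fold in shares near those of all genes. Of 13 vesicle endocytosis genes tested, 4 were lower in neonates (30.8%, against 31.1% of all genes), all at 2-fold or more. Another 4 were higher (30.8%, against 31.2%), none at 2-fold. At 2-fold, 13.2% of all genes were lower and 7.68% higher. Amph (amphiphysin), which bends membrane and recruits dynamin at nerve terminals, had 1.12 and 1.86 CPM in neonates and 10.2 and 10.9 CPM in adults. The adult libraries were several times higher, with a log2 fold change of -2.82 ± 0.29 (edgeR adjusted p = 5.2e-05), and its counts were in part fractional. Sh3gl2 (endophilin A1) had 24.0 and 22.1 CPM in neonates and 62.5 and 55.9 CPM in adults, and Pacsin1 (syndapin) had 0.730 and 1.67 CPM in neonates and 3.77 and 3.52 CPM in adults. Both were lower in neonates, at log2 fold changes of -1.36 and -1.60, as was Dnajc5, a chaperone of vesicle SNAREs, at -1.15. The higher genes were relatives with wide expression in many tissues, Bin1 (0.88), Sh3gl1 (0.36) and Dnm2 (0.21), together with Sh3gl3 (0.70). The 5 that did not pass were Dnm1 (0.15), Snap91 (0.03), Picalm (-0.02), Synj1 (-0.14) and Dnm3 (-0.36).

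The exocyst tethers vesicles to the plasma membrane before SNAREs engage, and its subunits act as 1 complex. Of 8 subunits tested, 5 were lower in neonates (62.5%, against 31.1% of all genes) and 1 was higher (12.5%, against 31.2%). At 2-fold, 25% were lower, against 13.2% of all genes. Exoc8 had 3.17 and 3.80 CPM in neonates and 13.5 and 13.9 CPM in adults. Exoc4 had 13.2 and 14.0 CPM in neonates and 32.1 and 32.6 CPM in adults. Both were lower in neonates at 2-fold or more, with log2 fold changes of -1.98 and -1.25. Exoc1 went the other way, with 79.1 and 77.4 CPM in neonates and 50.6 and 52.9 CPM in adults and a log2 fold change of 0.60 ± 0.08 (edgeR adjusted p = 0.00031), and Exoc6 was at -0.40.

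Other marker lists gave these sums and counts, beside 31.1% lower and 31.2% higher over all genes tested. Smooth muscle and pericyte markers (4 of 7 tested lower in neonates, 1 higher) were at 1219 and 1259 CPM in neonates and 1998 and 2111 CPM in adults. Endothelial markers (2 of 6 lower, 1 higher) were at 932 and 971 CPM in neonates and 964 and 974 CPM in adults. Skeletal muscle (1 of 4 higher), adipocyte (3 of 4 lower, 1 higher) and lymphocyte markers (2 of 3 lower, 1 higher) ranged from 15.5 to 25.1, from 119 to 185 and from 7.19 to 20.6 CPM.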
